A study of Mus musculus with 24 samples.

Results

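Nr1d1 and Nr1d2 encode REV-ERBα and REV-ERBβ, which are repressors of the nuclear receptor family, and Thra and AK053029 are transcribed from the strand opposite to Nr1d1. These 4 genes were taken by symbol from the 33079 rows of the exon RPKM table (reads on the exons, scaled to exonic length and to the library total). All 4 were among the 15112 genes that averaged more than 0.5 RPM in WT or in KO, where RPM is the same value without the scaling to length. Every library came from Per2::Luciferase knock-in mouse ES cells that had been differentiated for 28 days through embryoid bodies and then given 100 nM dexamethasone, a glucocorticoid that sets the clocks of cultured cells to a common phase. WT denotes the control knock-in cells (12 libraries), and KO denotes cells deficient in both REV-ERBs (12 libraries), in which exon 4 of Nr1d2 and later exon 3 of Nr1d1 had been deleted with CRISPR/Cas9. RNA was collected every 4 h from 12 to 56 h after dexamethasone, with 1 library for each genotype and time point, which pooled RNA of 3 embryoid bodies. The KO line was raised from picked colonies in successive rounds of targeting, so the genotype and the history of the line cannot be told apart. There were no repeat libraries at a time point, and p-values measure the spread over time points of 1 time course per genotype.

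REV-ERBs bind heme and lack the activation domain of other nuclear receptors. They recruit the NCoR and HDAC3 corepressor complex to ROR elements, and thereby repress Bmal1 (Arntl) and other genes of the circadian clock. Their own genes are driven through E-boxes by CLOCK and BMAL1, which gives both messengers a strong daily rhythm in most tissues. Thra encodes the thyroid hormone receptor TRα. One of its alternative 3′ ends, that of a product that does not bind the hormone, is known to run into the last exon of Nr1d1 on the opposite strand. AK053029 is listed as an antisense transcript in the deposited annotation, and no function is stated for it there.

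The exons removed in the KO cells are shown first because they decide what the RNA counts can say about the deletion. Both are coding exons of the region for the DNA-binding domain, both lie on the minus strand of GRCm38, and capitals mark where the reverse primer of the study's quantitative PCR lies.
Nr1d1 exon 3, chr11:98771437-98771525: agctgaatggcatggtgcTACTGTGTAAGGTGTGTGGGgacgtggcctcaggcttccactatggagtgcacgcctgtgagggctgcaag
Nr1d2 exon 4, chr14:18216650-18216794: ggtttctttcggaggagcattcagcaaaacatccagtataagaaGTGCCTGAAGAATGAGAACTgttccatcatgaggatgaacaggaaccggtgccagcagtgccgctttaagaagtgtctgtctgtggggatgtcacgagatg

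Exon 3 of Nr1d1 holds 89 bases, which is 3.23% of the exonic length of the gene. Exon 4 of Nr1d2 holds 145 bases, or 3.13% of its exonic length. Neither length is a multiple of 3. The paralogues share the layout of this region, and exon 3 has the same length in both and was identical at 74 of 89 positions (83.1%), while exon 4 was identical at 111 of 145 (76.6%). The deposited values sum the reads over all exons of a gene, so nearly all of the counted length lies outside the deleted exon. The values of Nr1d1 and Nr1d2 in KO cells are therefore levels of the remaining transcript and do not check the deletion.

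Both genes moved together over the day, so the 250 bases before each annotated start are given next, from RefSeq promoters on GRCm38.p6, minus strand. In all, 4 motifs were searched on both strands: the E-box CACGTG, its variant CACGTT, the nuclear receptor half-site AGGTCA and the D-box TTATGTAA. Capitals mark the matches.
Nr1d1 promoter, chr11:98775378-98775627: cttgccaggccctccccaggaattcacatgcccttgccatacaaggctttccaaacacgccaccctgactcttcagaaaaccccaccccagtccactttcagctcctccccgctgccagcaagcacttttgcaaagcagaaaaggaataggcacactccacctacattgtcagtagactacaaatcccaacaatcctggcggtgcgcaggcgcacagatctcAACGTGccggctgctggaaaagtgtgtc
Nr1d2 promoter, chr14:18239107-18239356: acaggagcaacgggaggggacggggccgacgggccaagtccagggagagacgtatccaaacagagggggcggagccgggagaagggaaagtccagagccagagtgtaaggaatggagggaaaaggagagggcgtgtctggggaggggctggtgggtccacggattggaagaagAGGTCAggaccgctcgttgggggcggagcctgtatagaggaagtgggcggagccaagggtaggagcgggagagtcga

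The Nr1d1 promoter held the E-box variant, read as AACGTG on the strand of the gene, from 28 to 23 bases before its start, and none of the other motifs. The Nr1d2 promoter held the half-site from 77 to 72 bases before its start and none of the others. Over 32851 promoters of the same length, 3.85% held the E-box variant, 14% the half-site, 6.02% the E-box and 0.819% the D-box. A match describes letters in this window and not a bound site.

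The layout of the Nr1d1 locus bears on every value given for it. Nr1d1 spans chr11:98767932-98775377 on the minus strand with 8 exons, and its counted exonic length is 2757 bases. Thra spans chr11:98741785-98769006 on the plus strand with 10 exons and 2468 counted bases, and its last exon overlaps the last exon of Nr1d1 by 263 bases, from 98768157 to 98768419. This stretch is 9.51% of the exonic bases of Nr1d1 and 10.6% of those of Thra. AK053029 spans chr11:98768996-98773402 on the plus strand as 1 unspliced block of 4407 bases. It covers 6 of the 8 exons of Nr1d1 whole, including the deleted exon 3. Those exons contribute 1617 of its bases and 58.5% of the exonic bases of Nr1d1, and the other 2790 bases of AK053029 lie in introns of Nr1d1. No other row overlaps Nr1d2, which spans chr14:18204056-18239106 on the minus strand with 8 exons. Nr1d2 thus serves as the member with no read shared with another row.

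**Figure D1:**
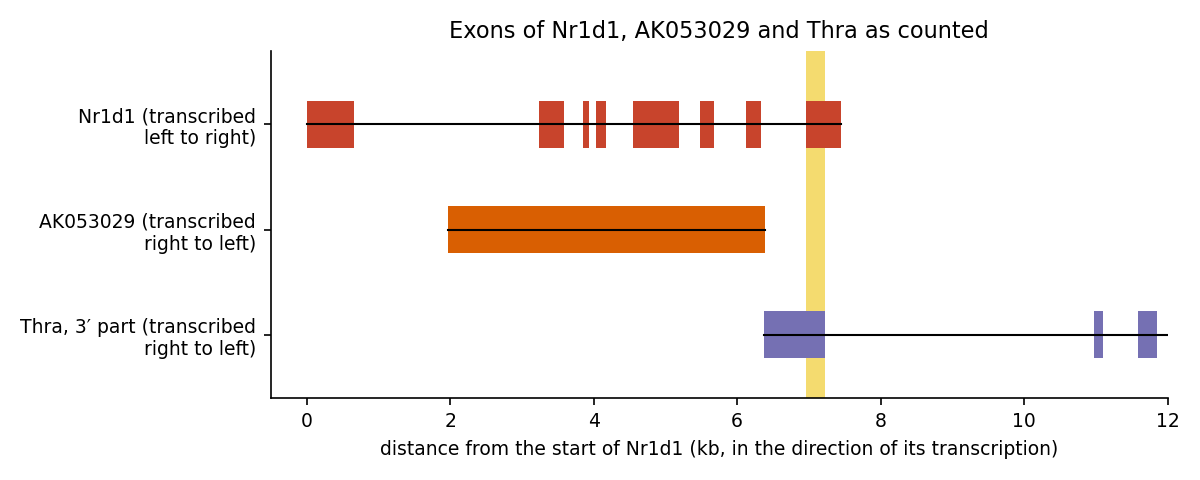
Exons of Nr1d1 (8), AK053029 (1 block) and the 3′ part of Thra, drawn against the distance in kb from the start of Nr1d1 in the direction of its transcription, with the 263 bases shared by Nr1d1 and Thra shaded in yellow. AK053029 runs across 6 of the 8 exons of Nr1d1, and the last exon of Nr1d1 meets the last exon of Thra on the other strand.

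The library kit does not mark strand, and the counts were checked for this on other genes. Among rows with a single exon of at least 100 bases that lie wholly inside exons of an opposite-strand gene above 5 RPKM, there were 72 pairs. The median ratio of the inner row to the gene around it was 1.13 (interquartile range 0.884 to 1.30). The ratio was above 0.5 in 66 of the 72 pairs (91.7%) and under 0.1 in 4. In most of these pairs, then, the row on one strand had about the density of the expressed gene on the other, and the 4 low rows were exceptions. From these counts, reads of Nr1d1, AK053029 and Thra cannot be told apart where their exons overlap.

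Thra was much the highest of the 4 genes per length. In WT it ranged from 25.2 RPKM at 56 h to 30.9 at 36 h with a median of 26.8, which put its mean at the 92.4th percentile of expressed genes. Nr1d1 ranged from 3.58 RPKM at 16 h to 7.48 at 24 h (median 4.67, 57.3rd percentile). Nr1d2, whose product is the second REV-ERB repressor, ranged from 0.895 RPKM at 16 h to 3.02 at 52 h (median 1.83, 32.3rd percentile). AK053029 ranged from 0.407 RPKM at 12 h to 2.14 at 24 h (median 0.992, 22.6th percentile). The order of the 4 genes was the same at all 12 WT time points. The ratio of Nr1d1 to Nr1d2 in RPKM lay between 2.00 at 52 h and 4.18 at 12 h, and that of AK053029 to Nr1d2 between 0.394 and 0.804. Mean fragments per WT library were 1196 for Thra, 242 for Nr1d1, 149 for Nr1d2 and 82.1 for AK053029. Counting error alone was thus about 2.89%, 6.42%, 8.20% and 11.03% of the mean, in the same order.

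In KO cells the order was again the same at every time point, with Thra lower and the other genes higher at most hours. Thra ranged from 16.4 RPKM at 40 h to 19.6 at 44 h (median 18.5, 87.6th percentile). Nr1d1 ranged from 2.48 RPKM at 16 h to 9.74 at 52 h (median 6.93, 64.7th percentile). Nr1d2 ranged from 1.38 RPKM at 16 h to 5.27 at 28 h (median 3.16, 45.5th percentile). AK053029 ranged from 0.690 RPKM at 16 h to 3.90 at 28 h (median 2.53, 37.5th percentile). The ratio of Nr1d1 to Nr1d2 in RPKM lay between 1.55 and 2.45.

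**Figure D2:**
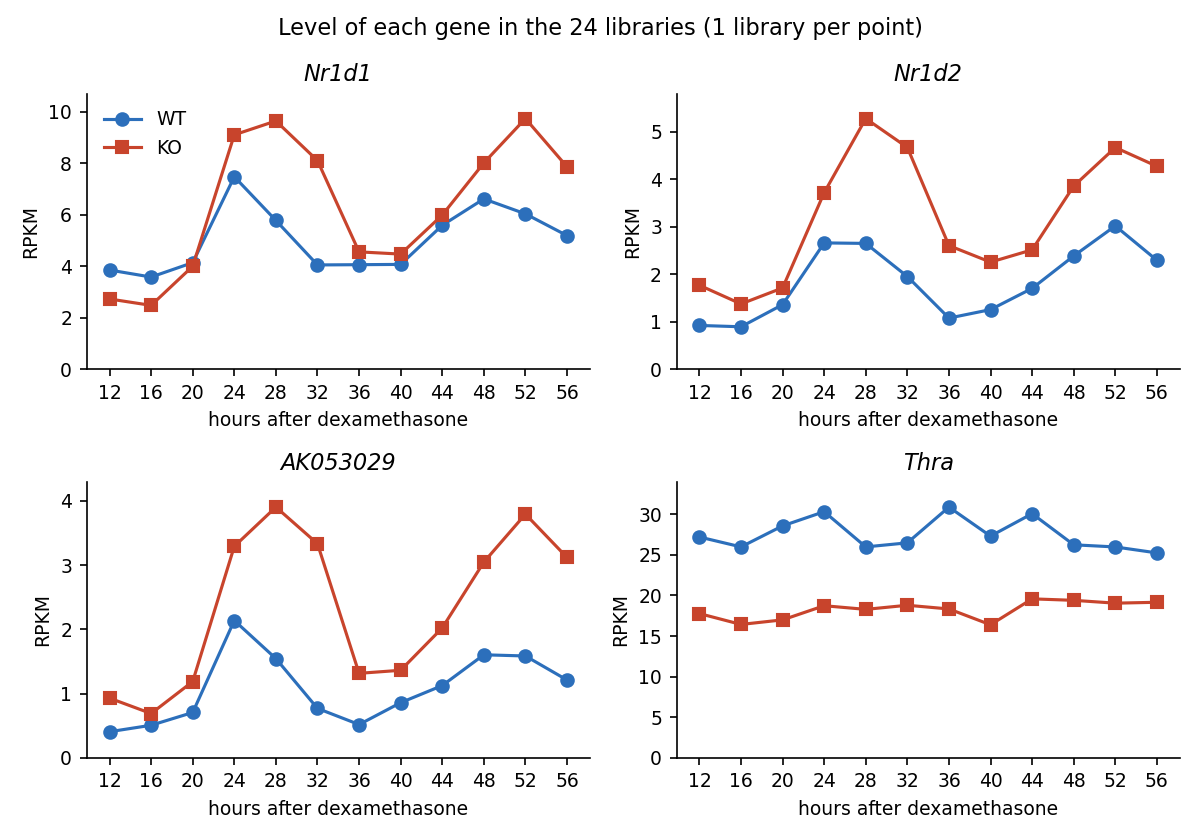
RPKM of Nr1d1, Nr1d2, AK053029 and Thra (vertical axes, from 0) against hours after dexamethasone, with WT in blue circles and KO in red squares and 1 library per point. Nr1d1, Nr1d2 and AK053029 crested near 24 to 28 h and again near 48 to 52 h in both genotypes, while Thra stayed between 25.2 and 30.9 RPKM in WT and between 16.4 and 19.6 in KO.

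Thra fell in KO cells at all 12 time points, and its groups did not overlap. The share of all expressed genes whose groups do not overlap was not counted, so this does not set Thra apart. WT cells averaged 27.5 ± 1.95 RPKM and KO cells 18.2 ± 1.12 (SD, n = 12 time points each). The log2 difference (KO minus WT) was -0.59 (SE 0.0398, adjusted p = 3.35e-10, limma across all expressed genes), a ratio of 0.664, and its p-value was the fifth smallest of the 15112. Among the genes that fell, 304, Thra included, changed by at least as much, so Thra stands out by its small spread and not by the size of its fall. The KO to WT ratio ran from 0.594 at 36 h to 0.759 at 56 h. A permutation test of the mean RPKM gave p = 2e-05, and an exact sign-flip test over the 12 within-time differences gave p = 0.000488, each two-sided and the smallest the test can give. Beside this fall, the summed level of 3 epithelial markers (Krt8, Cdh1 and Epcam, all of which rose) was 94.6 to 168 RPKM in WT and 170 to 274 in KO, also without overlap. The fibroblast marker Pdgfra (log2 difference -0.33, adjusted p = 0.00122) and the heart muscle marker Tnnt2 (-0.31, adjusted p = 0.00984) fell as Thra did. The other fibroblast markers rose, Col1a1 by 0.21 and Col3a1 by 0.35 (adjusted p = 0.00312 and 0.00685, limma). So did the other heart muscle markers, Myh6 by 0.63 and Nkx2-5 by 0.48 (adjusted p = 0.0299 and 0.0195, limma). All 5 neural markers had negative log2 differences, from -0.87 to -0.19, of which none passed in limma and 3 had an unadjusted p under 0.05. In bulk RNA, fewer cells of a type and less RNA per cell cannot be told apart, and the part of cell makeup in the levels of Thra, Nr1d2 and AK053029 was not tested. Of all expressed genes, 14.7% fell at an adjusted p under 0.05 and 11.2% rose, and the median log2 difference over all of them was -0.01.

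Nr1d2 rose in KO cells, with a mean of 3.22 ± 1.34 RPKM against 1.85 ± 0.746 in WT (SD, n = 12 time points each). The log2 difference was 0.76 (SE 0.239, adjusted p = 0.0220, limma). The KO level exceeded that of WT at 12 of 12 time points, from 1.26 times at 20 h to 2.41 times at 36 h with a median of 1.71, although the ranges of the groups overlapped. With the time point as a block, which takes out the shared rhythm, the adjusted p was 4.7e-05. The permutation test gave p = 0.00546 and the exact sign-flip test p = 0.000488, both two-sided. The remaining Nr1d2 messenger was thus more abundant in cells that lack exon 4 of it.

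AK053029 rose as well, from 1.08 ± 0.545 RPKM in WT to 2.33 ± 1.20 in KO (SD, n = 12 time points each). The log2 difference was 0.99 (SE 0.297, adjusted p = 0.0162, limma). The KO level again exceeded that of WT at 12 of 12 time points, from 1.36 times at 16 h to 4.33 times at 32 h with a median of 2.09. At 24, 28, 32, 48, 52 and 56 h its KO level lay above the highest WT level of the whole course. The KO levels of Nr1d1 and Nr1d2 lay above their own highest WT levels at the same 6 hours. For AK053029 the permutation test gave p = 0.00384 and the exact sign-flip test p = 0.000488, both two-sided. The row lies wholly inside the span of Nr1d1, and the share that comes from either strand was not measured.

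Nr1d1 did not pass the test. WT cells averaged 5.04 ± 1.26 RPKM and KO cells 6.39 ± 2.67 (SD, n = 12 time points each), and the log2 difference was 0.24 (SE 0.212, adjusted p = 0.429, limma, 95% interval -0.20 to 0.68). The permutation test gave p = 0.126 and the exact sign-flip test p = 0.103, both two-sided. The KO level was lower than WT at 12 h (0.708 times), 16 h (0.693 times) and 20 h (0.966 times) and higher at the other 9 hours, up to 2.00 times at 32 h. At 24, 28, 32, 48, 52 and 56 h the ratio lay between 1.21 and 2.00, and at the other 6 hours between 0.693 and 1.12. These hours were grouped after the values were seen. For Nr1d2 the ratios at the same hours were 1.40 to 2.39 and 1.26 to 2.41. Whether the ratio depends on the hour was not tested beyond the rhythm test given further on.

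**Figure D3:**
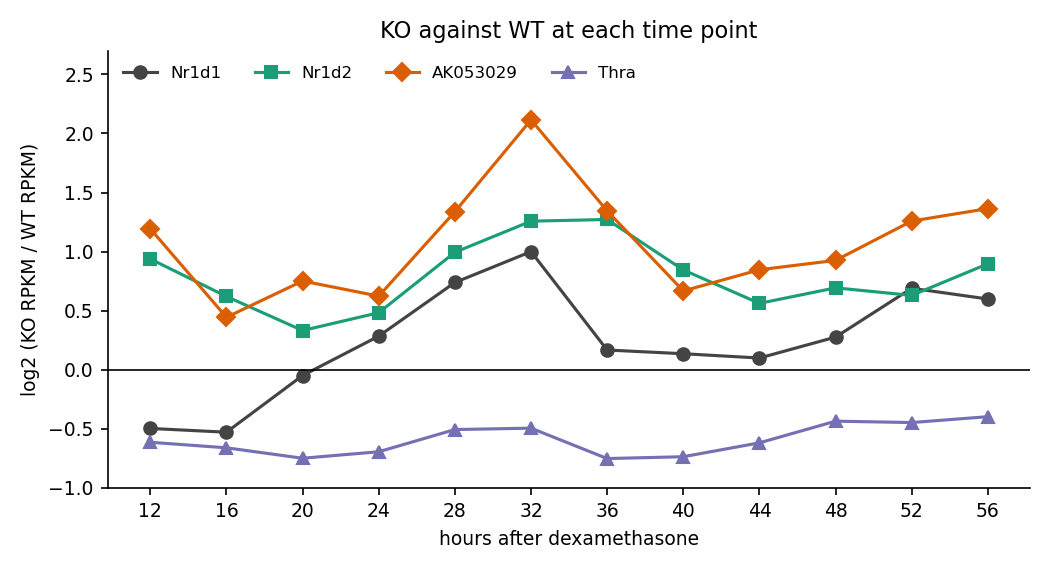
Log2 ratio of KO to WT RPKM (vertical axis) at each hour after dexamethasone for the 4 genes, 1 pair of libraries per point, with the line at 0 for equal levels. Nr1d2 and AK053029 lie above 0 at 12 of 12 time points, Thra below 0 at 12 of 12, and Nr1d1 crosses 0 after 20 h.

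The Nr1d1 value holds reads on the bases it shares with Thra, and Thra is the more abundant gene, so this share was worked out under even coverage of each gene. The calculation assigns 263 of the 2478 exonic bases of Thra to the shared stretch and solves for both densities in each library. This length includes both end bases of each exon, unlike the 2468 counted bases behind the RPKM. In WT the Thra reads would make up 37.0% of the Nr1d1 value at 48 h and 71.9% at 36 h, with a median of 56.1%. In KO they would make up 17.2% at 28 h and 62.5% at 16 h, with a median of 26.3%. Expressed in RPM, the Thra reads on Nr1d1 would be 6.53 to 8.06 in every WT library and 4.21 to 5.01 in every KO library, against Nr1d1 totals of 9.88 to 20.6 and 6.85 to 26.8. In the other direction the loss is small, since Nr1d1 reads would be 0.393% to 1.69% of Thra in WT and 0.603% to 4.64% in KO.

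A fit of the Nr1d1 RPM on those of AK053029 and Thra, with no intercept, does not use the assumption of even coverage. Over all 24 libraries the coefficient of Thra was 0.112 ± 0.0057 (SE), beside the 0.106 that the shared length gives under even coverage. Within WT it was 0.105 ± 0.0074 and within KO 0.0819 ± 0.0164 (n = 12 each). Fitted and measured values of Nr1d1 correlated with r = 0.986 over the 24 libraries. The points share their libraries, and AK053029 shares reads with Nr1d1, so the fit is a description. Thra varied little within a genotype, so its coefficient there cannot be told apart from a constant offset. With an intercept in place of Thra, that offset was 7.20 RPM in WT and 3.38 RPM in KO. The fit therefore does not decide whether the offset comes from Thra reads. How Thra reads divide between its alternative 3′ ends was not measured.

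**Figure D4:**
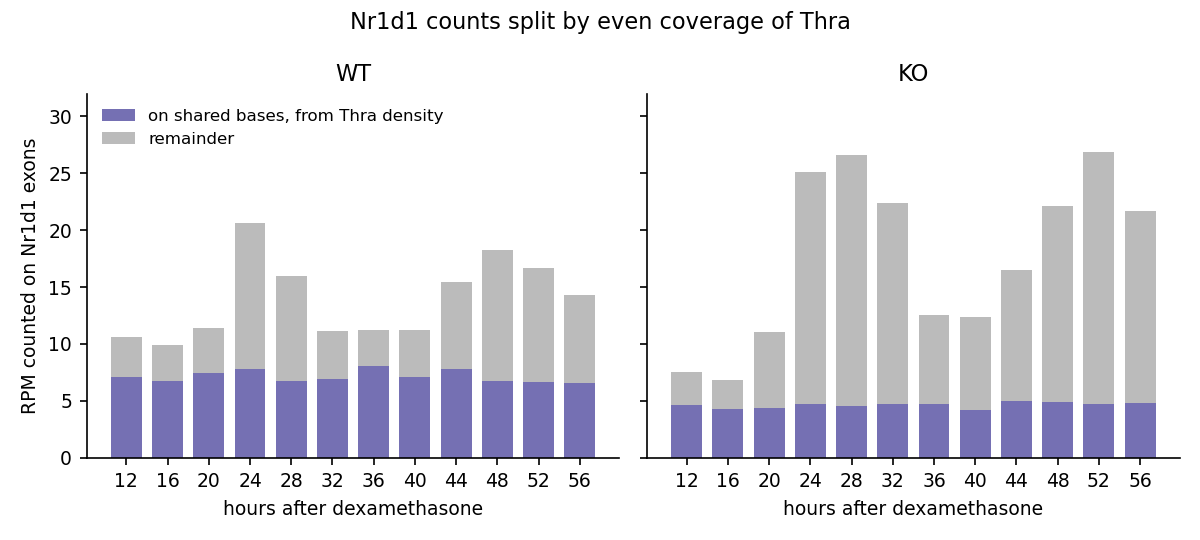
RPM counted on the exons of Nr1d1 (bar height, from 0) at each hour in WT (left) and KO (right), split under even coverage into reads that the density of Thra places on the shared bases (purple) and the remainder (grey). The purple part stays between 6.53 and 8.06 RPM in WT and between 4.21 and 5.01 in KO, while the remainder rises and falls over the day.

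With the shared reads divided in this way, Nr1d1 had a density of 1.12 RPKM at 16 h to 4.63 at 24 h in WT (median 2.15) and of 0.930 at 16 h to 7.99 at 52 h in KO (median 5.13). The range of Nr1d1 in WT then overlapped that of Nr1d2. The mean was 1.92 times higher in KO, and KO was higher at 10 of 12 time points, from 0.821 times at 12 h to 4.11 times at 32 h. The log2 difference was 0.80 (SE 0.352), which did not pass over all genes (adjusted p = 0.0971, limma) and passed with the time point as a block (adjusted p = 0.00382). The exact sign-flip test over the 12 within-time differences gave p = 0.00195, and the permutation test of the means p = 0.0138, both two-sided. This division was chosen after the values were seen. For Thra it changed little, with a log2 difference of -0.62 (adjusted p = 7.95e-11, limma).

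The same arithmetic gives what AK053029 would read if all its reads came from the Nr1d1 exons inside it. In WT the measured AK053029 value was 0.864 times this at 12 h to 1.57 times at 40 h, with a median of 1.23. In KO it was 1.22 times at 24 h to 2.41 times at 12 h, with a median of 1.34. The 10 KO libraries from 20 h on lay between 1.22 and 1.43. Those at 12 and 16 h lay at 2.41 and 2.02, with Nr1d1 densities of 1.05 and 0.930 RPKM. The WT libraries at 12, 16 and 36 h had densities of 1.28, 1.12 and 1.14 RPKM and lay at 0.864, 1.23 and 1.24. In RPM, AK053029 held 0.168 to 0.457 of the deposited Nr1d1 value in WT and 0.444 to 0.657 in KO. The higher ratio in KO stands beside the lower Thra reads in the Nr1d1 value of those cells.

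Nr1d2 and AK053029 passed the test for a daily rhythm in both genotypes, Nr1d1 passed in KO, and Thra passed in neither. The rhythm was measured as the amplitude (mean to peak, log2) of a 24 h cosine with a linear trend in each genotype, fitted with limma to all expressed genes. In WT 7 genes (0.0463%) and in KO 11 genes (0.0728%) passed an adjusted p under 0.05.

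Nr1d2, the member without shared reads, passed the rhythm test in both genotypes. In WT its amplitude was 0.69 ± 0.077 (SE, adjusted p = 0.00323), a peak 2.605 times its trough in the fitted wave, with a first peak at 26.7 h. In KO its amplitude was 0.71 ± 0.078 (adjusted p = 0.000811), 2.66 times from trough to peak, with a first peak at 28.4 h. The measured crests were 2.66 RPKM at 24 h and 3.02 at 52 h in WT, and 5.27 at 28 h and 4.67 at 52 h in KO. The troughs were 0.895 RPKM at 16 h and 1.08 at 36 h in WT, and 1.38 at 16 h and 2.26 at 40 h in KO. A crest and a trough came on each day, though not always at the same hour or level. The log2 values at the first 6 hours and 24 h later correlated with r = 0.967 in WT and 0.9995 in KO. This r does not register a shift in level between the days. The median absolute log2 difference between the days was 0.228 in WT and 0.365 in KO. The WT call was lost without the 36 h libraries (adjusted p = 0.0511), and both calls were lost at a period of 22 h (adjusted p = 0.318 in WT and 0.18 in KO).

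AK053029 had the largest fitted amplitudes of the 4 deposited rows. They were 0.77 ± 0.114 in WT (SE, adjusted p = 0.0267) and 0.92 ± 0.117 in KO (adjusted p = 0.00319), with first peaks at 25.4 h and 27.5 h. With the reads shared with Thra divided, Nr1d1 had larger fitted amplitudes, 0.83 in WT and 1.04 in KO. Which strand carries the rhythm counted on AK053029 was not measured. The measured crests of AK053029 were 2.14 RPKM at 24 h and 1.60 at 48 h in WT, and 3.90 at 28 h and 3.79 at 52 h in KO. The WT call was near the threshold, and it was lost in 9 of the 12 fits that left out 1 time point (12, 16, 24, 28, 36, 44, 48, 52 or 56 h), with adjusted p from 0.0547 to 0.242. The KO call was lost without 28 h (adjusted p = 0.0848). Both calls were lost at a period of 22 h (adjusted p = 0.336 in WT and 0.118 in KO) and at 26 h (0.316 and 0.0709).

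Nr1d1 had an amplitude of 0.39 ± 0.088 in WT (SE), which did not pass (adjusted p = 0.448, unadjusted p = 0.00138), and of 0.73 ± 0.091 in KO, which did (adjusted p = 0.00296). The KO call was lost without 28 h (adjusted p = 0.0842) and at a period of 22 h (adjusted p = 0.0862). Its crests were 7.48 RPKM at 24 h and 6.62 at 48 h in WT, and 9.65 at 28 h and 9.74 at 52 h in KO. Its troughs were 3.58 RPKM at 16 h and 4.06 at 36 h in WT, and 2.48 at 16 h and 4.48 at 40 h in KO. The ratio of highest to lowest value was 2.09 in WT and 3.92 in KO. With the shared reads divided, it became 4.12 (WT) and 8.59 (KO), and the amplitudes were 0.83 ± 0.158 in WT (adjusted p = 0.231) and 1.04 ± 0.162 in KO (adjusted p = 0.0328). The amplitude of Nr1d1 in WT thus moved from 0.39 to 0.83 with the reads on 263 bases, and the difference in amplitude (KO minus WT) moved from 0.34 (95% interval 0.08 to 0.61) to 0.21 (-0.27 to 0.68).

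Thra had fitted amplitudes of 0.06 ± 0.039 in WT (SE, adjusted p = 0.768) and 0.07 ± 0.040 in KO (adjusted p = 0.848), so no rhythm was detectable. Its highest value was 1.22 times its lowest in WT and 1.19 times in KO.

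The fitted peaks of Nr1d2, AK053029 and Nr1d1 came later in KO than in WT. The lag was 1.75 h for Nr1d2 (95% interval 0.588 to 2.90), 2.13 h for AK053029 (0.637 to 3.62) and 1.89 h for Nr1d1 (-0.14 to 3.92). These intervals are not adjusted for the number of genes. The test of a difference in rhythm, which takes amplitude and phase together, gave unadjusted p = 0.0189 for Nr1d2, 0.0211 for AK053029 and 0.0133 for Nr1d1 (limma). With the shared reads divided, Nr1d1 had an unadjusted p of 0.227 and a lag of 1.42 h (95% interval -0.46 to 3.30). On the deposited values none passed over all genes (adjusted p = 0.980, 0.992 and 0.908, in the same order). No gene of the 15112 did (0%), and 729 had an unadjusted p under 0.05. A delay in KO is therefore a size with an interval here and not a call. The time points were 4 h apart, which is wider than each of these lags.

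**Figure D5:**
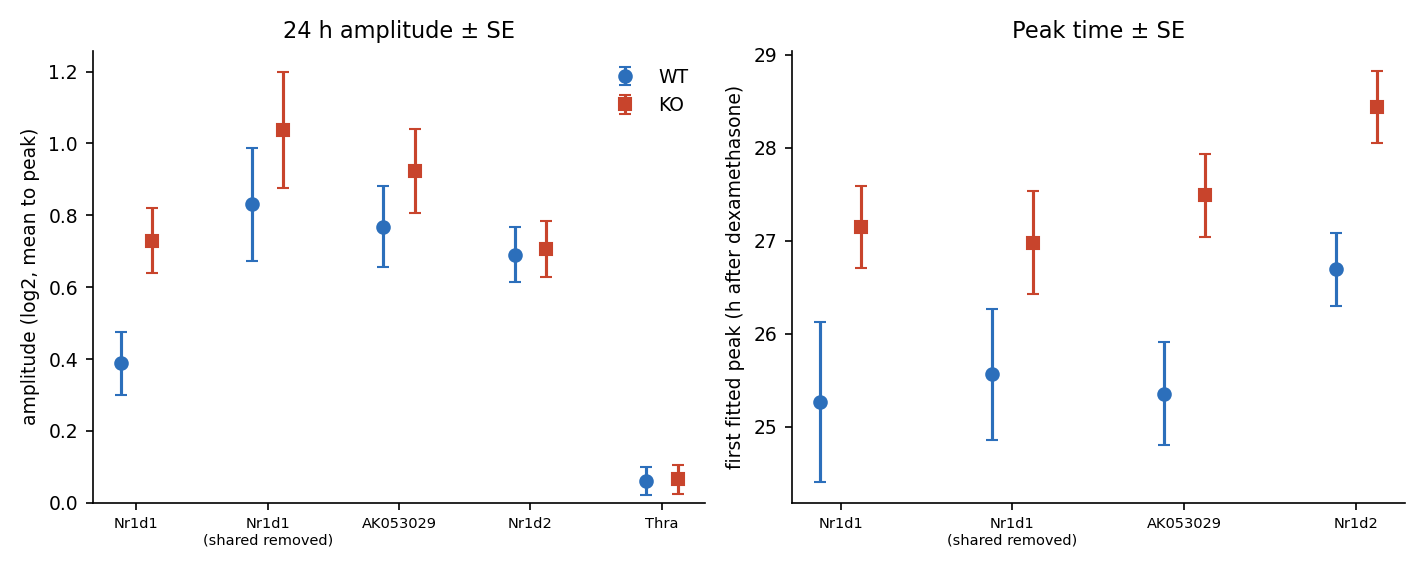
Left, amplitude of the 24 h cosine (log2, mean to peak) and right, time of its first peak in hours after dexamethasone, for WT (blue circles) and KO (red squares), with bars of 1 SE from the limma fit. Nr1d1 is shown as deposited and with the reads shared with Thra removed, where its WT amplitude is 0.83 in place of 0.39, and Thra, with amplitudes of 0.06 and 0.07, has no peak drawn.

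The members resembled each other more than they resembled any other gene, apart from Thra. Likeness was the Pearson r over the 24 libraries on log2(RPKM + 0.1), after the genotype mean was taken off, against 12239 genes with at least 1 RPKM. AK053029 had r = 0.952 with Nr1d1 and 0.953 with Nr1d2, and Nr1d1 had r = 0.888 with Nr1d2, each above every non-member. Nr1d2 shares no reads with the other rows, whereas AK053029 and Nr1d1 overlap along 6 exons. The non-members most like Nr1d2 were Adam23 (0.848), Cxcl12 (0.844), Dbp (0.841), Adamts2 (0.831) and Colec10 (0.806). Dbp is a clock output activator that binds D-boxes, and Cxcl12 is a chemokine. Those most like AK053029 were Cxcl12 (0.856), Adamts2 (0.854), Adam23 (0.847), Masp1 (0.826) and Gucy1a3 (0.803). Those most like Nr1d1 were Cxcl12 (0.826), St3gal6 (0.807), Slc44a2 (0.800), Cygb (0.799) and Gdf10 (0.798). Thra was unlike them, and its closest genes were Aldoc (0.765), Moxd1 (0.735), Camk2b (0.728), P4htm (0.713) and Spock2 (0.701). By likeness to Nr1d1, Thra stood at place 639 (r = 0.461).

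Within a genotype, over 12 time points and on log2 RPKM, Nr1d2 and AK053029 correlated with r = 0.933 in WT and 0.972 in KO. Nr1d1 and Nr1d2 correlated with r = 0.861 in WT and 0.956 in KO. Thra had an r to Nr1d2 of -0.23 in WT and 0.72 in KO, over a range of 1.22 and 1.19 times from its lowest to its highest value. These points share the libraries and their depth.

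The genes beside the members were counted next. Whether a difference in them is tied to the edited loci was not tested. Within 200 kb of Nr1d1 there were 16 other rows, of which 12 were expressed, and 4 of these fell and none rose (0 with an unadjusted p under 0.05 and a higher level in KO, limma), beside the 14.7% of all expressed genes that fell. Their median log2 difference was -0.03. The gasdermin gene Gsdma2 fell most (log2 difference -0.79, adjusted p = 0.00223), at a mean of 0.495 RPKM in WT and 0.231 in KO and at a distance of 110 kb. The Mediator subunit gene Med24 (-0.10, adjusted p = 0.0282), the exon junction complex gene Casc3 (-0.09, adjusted p = 0.0320) and the retinoic acid receptor gene Rara (-0.10, adjusted p = 0.0204) fell by less. Msl1, the gene nearest to Nr1d1 past its own partners at 20.4 kb, had a log2 difference of -0.03 (adjusted p = 0.413). Within 200 kb of Nr1d2 there were 3 rows, all expressed, and the ribosomal protein gene Rpl15 rose (0.11, adjusted p = 0.0422), beside 11.2% of all expressed genes. None of these neighbours had a rhythm that passed in limma, and 2 near Nr1d1 in WT and 0 in KO had an unadjusted p under 0.05.

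Of the factors that drive or share the rhythm of the REV-ERB genes, the core clock list held 8. In limma without the time point as a block, 2 of these rose in KO and none fell (1 was lower at an unadjusted p under 0.05), beside 11.2% and 14.7% of all expressed genes. Npas2, a partner of BMAL1, rose by a log2 difference of 0.62 (adjusted p = 2.56e-06) and Arntl, which encodes BMAL1, by 0.41 (adjusted p = 0.000145). Per2, Per3 and Cry1, repressors of CLOCK and BMAL1, passed the rhythm test in both genotypes. The list median was 0.02. In the list of 7 clock output and E-box factors, Nfil3 (0.21), Bhlhe40 (0.30) and Ciart (0.39) rose and none fell (0 at an unadjusted p under 0.05), beside 11.2% of all expressed genes that rose. The list median was 0.21. Dbp and Tef passed the rhythm test in both genotypes and Hlf in KO.

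The corepressor complex is what REV-ERB proteins act through. None of the 6 genes of the corepressor complex passed in limma (2 had an unadjusted p under 0.05, both lower in KO), and their log2 differences ran from -0.10 to 0.06. Rora, an activator at the same elements, had a log2 difference of 0.02 (adjusted p = 0.776), and Rorb was not expressed.

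Around Thra, the list of receptor partners and coactivators had 7 of 8 genes expressed, of which 2 fell and none rose (0 at an unadjusted p under 0.05). With 14.7% of all expressed genes lower in KO, a count of 2 says little about the list. Thrb, the second thyroid hormone receptor, fell by a log2 difference of -0.34 (SE 0.0651, adjusted p = 0.000497), from 1.504 ± 0.180 to 1.16 ± 0.141 RPKM, and the coactivator Ncoa2 by -0.12 (adjusted p = 0.0227). In the list of hormone entry, conversion and response, 7 of 10 genes were expressed, and 3 rose and none fell (1 at an unadjusted p under 0.05), beside 11.2% and 14.7% of all expressed genes. Dio3, the deiodinase that inactivates the hormone, rose by 0.90 (SE 0.172, adjusted p = 0.000552) from 0.754 ± 0.252 to 1.48 ± 0.473 RPKM. Dio2, the deiodinase that activates it, rose by 0.58 (adjusted p = 0.00199), at low levels of 0.258 ± 0.063 RPKM in WT and 0.444 ± 0.148 in KO. Hr, a corepressor and known target of the hormone, rose by 0.38 (adjusted p = 0.00265), and Klf9, another known target, had -0.16 (adjusted p = 0.0859). No gene of these lists passed the rhythm test in limma, and 0 in WT and 2 in KO, both from the latter list, had an unadjusted p under 0.05.

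Between 6183501 and 10287969 fragments per library lay on exons, which was 44.7% to 46.0% of the library total, and pairs of libraries correlated with r from 0.962 to 0.992 over expressed genes. Markers of several lineages were present, as labels of differentiated cells imply, and the summed level of 5 pluripotency markers was 1.31 to 9.18 RPKM in WT and 0.999 to 5.10 in KO, with Nanog and Zfp42 too low to count as expressed. Apart from the epithelial markers, the ranges of the sums overlapped between the genotypes, although single markers passed. Of the smooth muscle markers 3 of 4 rose, and of the 3 heart muscle and the 3 fibroblast markers 2 rose and 1 fell. Of the 3 endothelial and the 3 leukocyte markers 1 each rose. Over all expressed genes, 11.2% rose and 14.7% fell, so a count of 1 in 3 says little. The sums were 6.67 to 28.1 RPKM in WT and 4.49 to 15.3 in KO for neural cells, 24.96 to 780 and 25.4 to 797 for endoderm, 233 to 323 and 246 to 361 for smooth muscle, and 38.1 to 63.0 and 37.2 to 67.8 for heart muscle. They were 3.58 to 16.2 and 6.99 to 14.6 for endothelium, 1280 to 1666 and 1414 to 2103 for fibroblasts, and 46.8 to 55.5 and 48.3 to 55.2 for leukocytes.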

How the data were processed

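PolyA RNA of 12 WT and 12 KO libraries was sequenced with a kit that does not mark strand. Per the labels and the study's methods, the authors trimmed reads with Trimmomatic 0.36, mapped them to GRCm38/mm10 with STAR 2.5.4b, removed alignments with a mapping quality under 10 with SAMtools, and used HOMER to count the reads on exons of the UCSC known canonical set. What the authors deposited is RPKM, beside exonic lengths, through which RPM were obtained here. The strand setting of the counting is not given in the sources used here. Undoing both scalings left steps of 0.5 fragment (within 0.01) for 100% of values. Fragments describe depth only.

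Genes with a mean above 0.5 RPM in either genotype (15112) entered limma 3.58.1 (R 4.3.3) as log2(RPKM + 0.1), with Benjamini-Hochberg adjustment over all of them and a threshold of 0.05. A fold change on this scale understates that of low genes. For rhythm, a 24 h cosine wave and a linear trend were fitted in each genotype and the wave tested. MetaCycle, which the study used, was not at hand. With it, at P < 0.05 and over a range of periods, the study listed both REV-ERB genes as cycling in WT and KO. The calls here use 1 fixed period and adjusted p-values, so the failure of Nr1d1 in WT is not a like comparison. Both tests were run on simulated data with known answers. Single genes were compared by two-sided permutation tests (100000 permutations) and exact sign-flip tests. The rest used Python 3.11.15 (scipy 1.17.1, numpy 2.4.6, pandas 2.3.3, matplotlib 3.10.9). Exons came from GENCODE M21, with the ends of each gene set to those in the file, which gave the lengths in the file exactly. Promoters came from RefSeq on GRCm38.p6, in which Nr1d1 and Nr1d2 were matched by symbol.

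The members, gene lists and tests were chosen with earlier results of these data known. Genes named are the 4 members, the 5 genes most like each, called genes within 200 kb of Nr1d1 or Nr1d2, and called genes of the lists for core clock, clock output, corepressor complex, ROR receptors, thyroid hormone receptor partners and thyroid hormone entry, conversion and response. One list gene is counted but not reported here. Other list genes and the lineage markers named were chosen after their values were seen. WT and KO libraries share the hour by label. Deviations from the genotype mean correlated with r = 0.163 on average over the 12 same-hour pairs (-0.175 to 0.389), against -0.0149 over 132 other pairs, and the hour was used as a block in an alternative fit.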

Additional observations from a re-analysis of the deposited data

How the results depend on the processing

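The log2 differences of Nr1d1, Nr1d2, AK053029 and Thra kept their direction and their side of the threshold under other pseudocounts, filters and scalings and with the time point as a block. Leaving out 1 time point gave 0.173 to 0.309 for Nr1d1, 0.715 to 0.797 for Nr1d2, 0.904 to 1.05 for AK053029 and -0.607 to -0.575 for Thra. It gave 1327 to 1757 genes higher and 1744 to 2226 lower in KO.

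Rhythm calls depended on the period and on single time points. At 22 h the amplitude was 0.626 for Nr1d2 in WT (adjusted p = 0.318), 0.72 for AK053029 in WT (0.336), 0.673 for Nr1d1 in KO (0.0862), 0.658 for Nr1d2 in KO (0.18) and 0.867 for AK053029 in KO (0.118), none past the threshold. At 26 h AK053029 lost its call in WT (0.734, adjusted p = 0.316) and in KO (0.852, 0.0709). AK053029 in WT also lost it with a pseudocount of 1 (0.425, adjusted p = 0.0502) and with no filter (0.768, 0.0555), where more genes were tested. The number of genes with a rhythm was 4 with no filter, 2 at 22 h and 1 at 26 h in WT, and 5 at 22 h and 6 at 26 h in KO. With no linear trend, 1 gene differed in rhythm. The cause of these changes was otherwise not tested.

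Leaving out 1 time point gave amplitudes of 0.301 to 0.413 (WT) and 0.656 to 0.817 (KO) for Nr1d1, 0.64 to 0.749 and 0.645 to 0.796 for Nr1d2, 0.62 to 0.869 and 0.861 to 1.02 for AK053029, and 0.0358 to 0.0795 and 0.0312 to 0.0908 for Thra. The size of the difference in rhythm was 0.35 to 0.516 for Nr1d1, 0.281 to 0.37 for Nr1d2, 0.363 to 0.57 for AK053029 and 0.0984 to 0.132 for Thra. Between 0 and 8 genes had a rhythm in WT, 7 to 12 in KO, and 0 to 1 a difference. The lowest WT count was reached without 36 h.

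The time point as a block changed no call on the deposited values and gave 1825 genes higher and 2387 lower. It changed the call of Nr1d1 with the shared reads divided, an alternative chosen after seeing the data. AK053029 averaged 82.1 fragments per WT library.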
